A study of Mus musculus with 67 samples.

Results

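The *Meis*, *Pbx* and *Pknox* genes encode the homeodomain cofactors of the TALE class, and 8 of them, *Meis1*, *Meis2*, *Meis3*, *Pbx2*, *Pbx3*, *Pbx4*, *Pknox1* and *Pknox2*, were taken by gene name from the 46983 gene IDs of the RNA-seq tables. Each of the 8 names was held by 1 gene ID. The study sequenced RNA of 14 mouse forelimb bud pools to ask which genes change without *Gli3*, before and after Hedgehog (HH) signaling starts in the limb. The pre-HH libraries came from whole forelimb buds of E9.25 embryos (21–23 somites, S), with 3 WT and 4 *Gli3*-/- replicates. The post-HH libraries came from the anterior part of E10.5 forelimb buds (32–35 S), with 4 WT and 3 *Gli3*-/- replicates. WT embryos were Swiss Webster, and *Gli3*-/- embryos were mutant for the *Gli3* Xt-J allele, a deletion within *Gli3*, kept on that background, which the whole embryo carries and not the limb alone. Each library pooled the buds of several embryos (per the labels, about 4 pairs in the E9.25 libraries and 2 in the E10.5 ones, where the study's methods give about 4 for both), the labels name no treatment, and stage cannot be told apart from the part of the bud in any comparison of E9.25 with E10.5.

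MEIS and PKNOX proteins bind DNA as partners of PBX proteins, and both kinds of partner join HOX proteins, whose choice of DNA sites they sharpen. In the early limb bud *Meis1* and *Meis2* mark the proximal cells that will form the upper limb and girdle, are maintained by retinoic acid and are kept out of the distal bud by FGF signals from the apical ridge. PBX proteins act upstream of *Hox* genes in limb patterning, and PKNOX1, also called PREP1, competes with MEIS for PBX partners.

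The 8 genes lie on 6 mouse chromosomes, with coordinates here in mm10. *Meis1* (ENSMUSG00000020160.18) was listed on the minus strand at chr11:18879817-19018985, *Meis2* on the minus strand at chr2:115863064-116065839 and *Meis3* on the plus strand at chr7:16175090-16186504. *Pbx2* was at chr17:34591266-34597400, *Pbx3* at chr2:34171457-34373142, *Pbx4* at chr8:69832491-69872292, *Pknox1* at chr17:31564749-31607684 and *Pknox2* at chr9:36890982-37147322. Their spans from first to last base ranged from 6135 bases for *Pbx2* to 256341 for *Pknox2*, and *Meis1*, *Meis2*, *Pbx3* and *Pknox2* each spanned more than 100 kb. Whether strand was used to assign reads is not given in the sources used here, and 5 of the genes overlapped other listed genes. The overlapping gene with the highest level was *Gpsm3*, which shared 489 bases with *Pbx2* on the same strand at a TPM of at most 6.45.

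The starts of *Meis1*, *Meis2* and *Meis3* are shown because these 3 genes were all lower with loss of *Gli3* at E10.5. The 250 bases before 1 start of each gene were read from RefSeq (GRCm38.p6), 5′ to 3′ in the direction of the gene, at chr11:19018970-19019219 (minus), chr2:116064620-116064869 (minus) and chr7:16175145-16175394 (plus). Matches to the words CCAAT and TATAAA on either strand are in capitals. All 3 windows lie within the span that RefSeq gives the gene, whose outermost start is further upstream.
Meis1: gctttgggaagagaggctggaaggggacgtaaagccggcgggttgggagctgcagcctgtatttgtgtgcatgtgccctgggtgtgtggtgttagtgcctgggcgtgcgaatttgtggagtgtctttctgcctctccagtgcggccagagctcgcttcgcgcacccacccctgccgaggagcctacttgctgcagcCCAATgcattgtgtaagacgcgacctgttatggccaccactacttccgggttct
Meis2: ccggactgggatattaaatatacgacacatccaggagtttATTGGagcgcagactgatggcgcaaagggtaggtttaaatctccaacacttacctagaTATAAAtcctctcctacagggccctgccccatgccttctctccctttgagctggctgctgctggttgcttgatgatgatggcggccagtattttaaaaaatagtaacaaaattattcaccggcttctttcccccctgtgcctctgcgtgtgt
Meis3: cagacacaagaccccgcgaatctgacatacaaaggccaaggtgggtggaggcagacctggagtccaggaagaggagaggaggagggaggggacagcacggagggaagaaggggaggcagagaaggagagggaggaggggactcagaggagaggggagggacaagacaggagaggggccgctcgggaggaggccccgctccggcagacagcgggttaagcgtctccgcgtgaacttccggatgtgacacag

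Promoter windows of 300 bases (250 before to 50 after the start) were held for 5 of the genes, *Meis1*, *Meis2*, *Meis3*, *Pbx2* and *Pbx4*. They were searched on both strands for 7 words, none of which contains another. The GLI site GACCACCCA, which 0.253% of 32817 mouse promoter windows of this length hold, was in none of the 5. The MEIS and PKNOX hexamer TGACAG (19.2% of all windows) was likewise in none, as were the octamer TGATTGAT bound by PBX with HOX (0.747%) and the retinoic acid receptor half-site AGGTCA (16.3%). A CCAAT box was found in *Meis1*, *Meis2* and *Pbx4*, against 37.4% of all windows. The TATA box word TATAAA was found in *Meis2* at bases −152 to −147 from the start, against 13.6% of all windows that hold it at any position. Whether it acts as a TATA box was not tested. The GC box, searched as GGGCGG, was found in *Pbx2*, against 35.6%. *Meis3* held none of the 7 words. The G and C content of the 250 bases was 59.6% for *Meis1*, 47.6% for *Meis2* and 63.6% for *Meis3*.

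Levels were read as TPM (transcript abundance scaled to a fixed total per library), with gene length taken into account, so that different genes can be set side by side. An estimated 38.1 to 56.8 M reads per library put 20.7 to 29.3 reads per kilobase behind a TPM of 1. *Gli3*, the targeted gene, was at 73.4 to 89.7 TPM in WT at E10.5 and at 38.7 to 40.9 in *Gli3*-/-, where reads from outside the deletion still count. At E9.25 it was at 14.3 to 20.8 TPM in *Gli3*-/-, and at 44.2, 15.8 and 44.6 in WT replicates 1 to 3. The library labelled E9.25 WT replicate 2 was thus inside the *Gli3*-/- range for *Gli3*, a gene of 266792 bases, and it was low for long genes in general. Over 1690 genes spanning 100 kb or more, its median deviation from the other E9.25 WT libraries was −0.51 on the log2(TPM + 1) scale, against −0.20 over all genes. It was the lowest E9.25 WT library for *Meis1*, *Meis2*, *Pbx3*, *Pbx4*, *Pknox1* and *Pknox2*, and values without it are given for these genes and for calls that rest on it. Limb mesenchyme markers summed to 687 to 1150 TPM in the 14 libraries and none of the 8 was under 1 TPM throughout a group. Among neural markers only *Tubb3* passed 1 TPM in any group.

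*Pbx2*, which encodes a broadly expressed PBX protein, had the highest mean TPM of the 8 genes in each of the 4 groups. Its E9.25 WT mean was 105 ± 13.6 TPM (SD, n = 3), and *Meis2* followed at 81.9 ± 20.9, with ranges that overlapped. *Pbx3* (35.2 ± 4.42) and *Meis1* (32.1 ± 9.16) came next and overlapped each other, then *Pknox1* at 15.6 ± 2.60, *Meis3* at 7.95 ± 3.09, *Pknox2* at 3.40 ± 1.77 and *Pbx4* at 0.532 ± 0.498. The order in E9.25 *Gli3*-/- differed only in that *Meis1* stood above *Pbx3*, and those 2 again overlapped. In E10.5 WT each gene stood clear of the next, with no overlap of ranges, down to *Meis3*, and only *Pbx4* and *Pknox2* overlapped. In E10.5 *Gli3*-/- *Pbx3* stood above *Meis2*, whose range it overlapped, *Pknox1* stood above *Meis1* with no overlap, and *Meis3* overlapped both *Pknox2* above it and *Pbx4* below it.

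**Figure D1:**
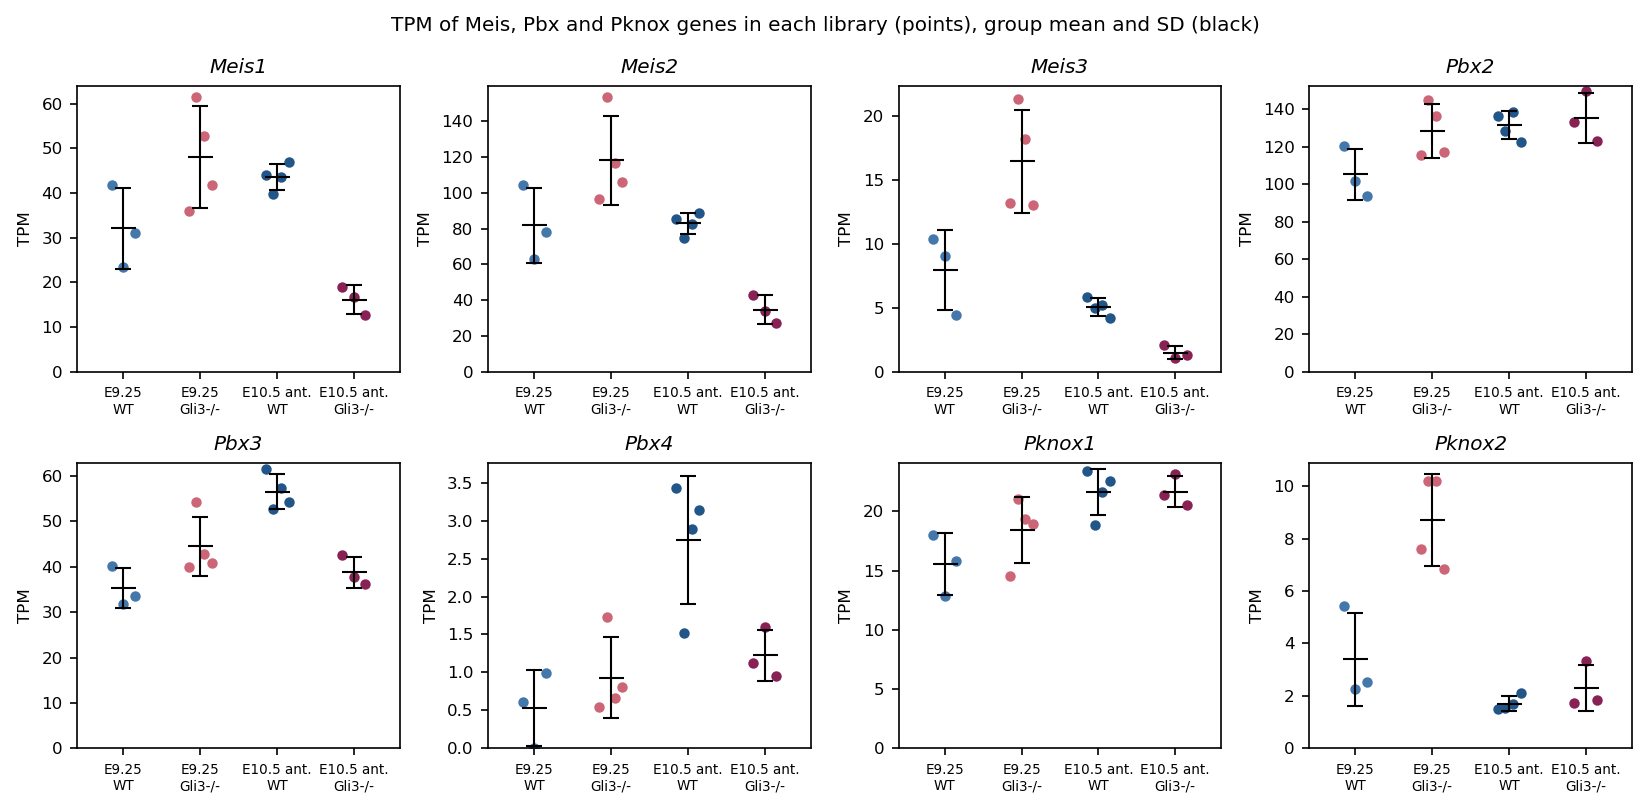
TPM (vertical axis, from 0, with its own scale in each panel) of the 8 genes in the 14 libraries by group. Points are libraries, and black bars are the group mean and SD (n = 3, 4, 4 and 3). The E10.5 Gli3-/- points of Meis1, Meis2, Meis3 and Pbx3 lie below every E10.5 WT point.

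With loss of *Gli3* at E10.5, all 3 *Meis* genes and *Pbx3* fell in the anterior forelimb bud, and *Pbx2*, *Pbx4*, *Pknox1* and *Pknox2* were not called. In all, 4 of the 8 genes passed the test (limma on log2(TPM + 1), adjusted p under 0.05) and all 4 were lower, where 2.93% of the 15654 genes tested were called lower. Groups did not overlap for those same 4 genes, against 19.3% of all genes tested. The median log2 fold change was −0.63 over the 8 genes and −0.022 over all genes tested.

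*Meis1*, which specifies proximal identity in the limb, was at 44.2, 39.9, 43.7 and 46.9 TPM in E10.5 WT, and E10.5 *Gli3*-/- had 19.0, 16.7 and 12.6. Every *Gli3*-/- library was below every WT library, and the mean was 63.1% lower. On the log2 scale the difference was −1.40 (95% interval −1.68 to −1.12, standard error 0.13, limma adjusted p = 0.000586). *Meis2*, the most abundant *Meis* transcript, was at 85.5, 74.8, 82.6 and 88.6 TPM in WT and at 42.9, 34.1 and 27.1 in *Gli3*-/-. The groups were again apart, and the difference was −1.25 in log2 terms (limma adjusted p = 0.00119, standard error 0.14).

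*Meis3*, known from hindbrain patterning, was at 5.87, 4.98, 5.21 and 4.17 TPM in E10.5 WT and at 2.10, 1.09 and 1.33 in *Gli3*-/-. Its mean was 70.2% lower, and its log2 difference was −1.28 (limma adjusted p = 0.00309, standard error 0.17), a value that the added 1 TPM makes smaller for low genes such as this. All 3 *Meis* genes passed in each of the 7 fits that left out 1 E10.5 library.

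Among the PBX genes, *Pbx3*, which encodes a PBX protein best known from the nervous system, was at 61.4, 52.7, 57.4 and 54.3 TPM in E10.5 WT and at 42.6, 37.7 and 36.1 in *Gli3*-/-. All *Gli3*-/- values were lower than all WT values, with a log2 difference of −0.53 (95% interval −0.72 to −0.34, standard error 0.083, limma adjusted p = 0.00787). *Pbx4*, known mainly from the testis, was at 3.43, 1.52, 2.89 and 3.14 TPM in WT and at 1.12, 1.60 and 0.947 in *Gli3*-/-. WT replicate 2 fell within the *Gli3*-/- range, and the difference of −0.73 (standard error 0.21) was not called (limma adjusted p = 0.0919). With WT replicate 2 left out it was −0.91 (adjusted p = 0.0165). *Pbx2* was at 136, 128, 138 and 123 TPM in WT and at 133, 149 and 123 in *Gli3*-/-, and its difference of 0.038 had a 95% interval of −0.14 to 0.22.

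*Pknox1*, which was at 23.4, 18.9, 21.7 and 22.6 TPM in E10.5 WT and at 21.4, 23.1 and 20.5 in *Gli3*-/-, differed by 0.0060 (95% interval −0.20 to 0.22). *Pknox2*, the more restricted PKNOX gene, was at 1.51, 1.53, 1.68 and 2.11 TPM in WT and at 1.74, 3.32 and 1.84 in *Gli3*-/-, a difference of 0.26 (95% interval −0.16 to 0.67). Neither was called. In these bulk libraries fewer cells of a type and less RNA per cell cannot be told apart, so the lower *Meis* and *Pbx3* levels are levels in the whole anterior piece. Of the 8 limb mesenchyme markers 6 were also lower and 1 was higher at E10.5, and their sum was 932 to 1150 TPM in WT and 697 to 743 in *Gli3*-/-. The part of this difference in the *Meis* and *Pbx3* results was not tested. Flank and lateral plate mesoderm markers summed to 42.5 to 54.6 TPM in WT and 56.4 to 66.4 in *Gli3*-/-, with *Foxf1*, *Foxf2*, *Gata4*, *Gata5*, *Tcf21* and *Wt1* under 1 TPM in every library of both groups and 0 of 3 tested markers called. Most of both sums was *Bmp4*, with a mean of 41.7 TPM in WT and 46.4 in *Gli3*-/-.

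At E9.25, before HH signaling, no gene of the 8 was called with loss of *Gli3*, and the *Meis* means were higher in *Gli3*-/- rather than lower. In this comparison 0.136% of the 14760 genes tested were called, 20 in all, while 3247 genes had an unadjusted p under 0.05 in limma, 4 of the 8 among them. The median of all genes tested was itself at 0.23 on the log2 scale, and each of the 7 of 8 genes that passed the filter on low values (TPM 1 or more in 3 or more of the compared libraries) was above it. For 2 of the genes, *Meis3* and *Pknox2*, the groups did not overlap, which was so for 13.3% of the genes tested.

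*Meis1* was at 41.7, 23.5 and 31.1 TPM in the E9.25 WT libraries and at 36.0, 61.5, 52.9 and 41.9 in *Gli3*-/-, with ranges that overlapped. Its difference was 0.58 (95% interval 0.070 to 1.08, limma adjusted p = 0.217), and 0.38 without the library labelled WT replicate 2. *Meis2* was at 104, 63.0 and 78.3 TPM in WT and at 96.6, 153, 117 and 106 in *Gli3*-/-, a difference of 0.53 (adjusted p = 0.217) that came to 0.36 without that library. *Meis3* was at 10.4, 9.04 and 4.47 TPM in WT and at 13.2, 21.3, 18.2 and 13.1 in *Gli3*-/-. All *Gli3*-/- values were above all WT values, by 1.00 on the log2(TPM + 1) scale (95% interval 0.39 to 1.62, limma adjusted p = 0.206), and by 1.12 without that library. Without WT replicate 3, the lowest for *Meis3*, the difference was 0.68.

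*Pknox2* was at 5.44, 2.25 and 2.52 TPM in E9.25 WT and at 7.61, 10.2, 10.2 and 6.82 in *Gli3*-/-. It had the largest difference of the 7, 1.19 (95% interval 0.60 to 1.79, limma adjusted p = 0.146), and passed with WT replicate 1 left out (1.50, adjusted p = 0.0226). It was not called without the library labelled WT replicate 2 (1.01, adjusted p = 0.291) or without WT replicate 3 (1.07, adjusted p = 0.343). In 1 model of all 14 libraries, which shares the spread over the 4 groups, *Meis3* (adjusted p = 0.0382) and *Pknox2* (adjusted p = 0.0171) were called at E9.25. *Pbx2* differed by 0.29, *Pbx3* by 0.32 and *Pknox1* by 0.23, with intervals that included 0, and *Pknox1* was at −0.048 after quantile normalization. Without the library labelled WT replicate 2 they differed by 0.27, 0.26 and 0.11. *Pbx4* did not reach the filter, at 0.609, 0 and 0.986 TPM in WT and 0.538, 1.72, 0.663 and 0.802 in *Gli3*-/-.

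Markers of the flank moved with genotype at this stage. Of 9 flank and lateral plate mesoderm markers tested, 4 were higher in E9.25 *Gli3*-/- and 0 lower, and the 10 listed markers summed to 65.6 to 117 TPM in WT and 145 to 294 in *Gli3*-/-. Those with the lowest adjusted p in limma were *Osr1* (2.09, adjusted p = 0.00636), *Foxf1* (3.68, adjusted p = 0.0125) and *Gata4* (2.87, adjusted p = 0.0128), and *Foxf2* was listed at 0 in all 3 WT libraries. Within the groups the order of the libraries by *Meis* sum and by flank sum was the same only in part. Both sums were highest in replicate 1 among the WT libraries, and both were higher in *Gli3*-/- replicates 2 and 3 than in replicates 1 and 4. The *Meis* sum was lowest in the library labelled WT replicate 2 and in *Gli3*-/- replicate 1, and the flank sum in WT replicate 3 and *Gli3*-/- replicate 4. Endothelial markers also had separate ranges, 60.8 to 98.0 TPM in WT and 112 to 162 in *Gli3*-/-, with 0 of 7 called and a median of 0.67. The part of these marker differences in the E9.25 *Meis* and *Pknox2* values was not tested.

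**Figure D2:**
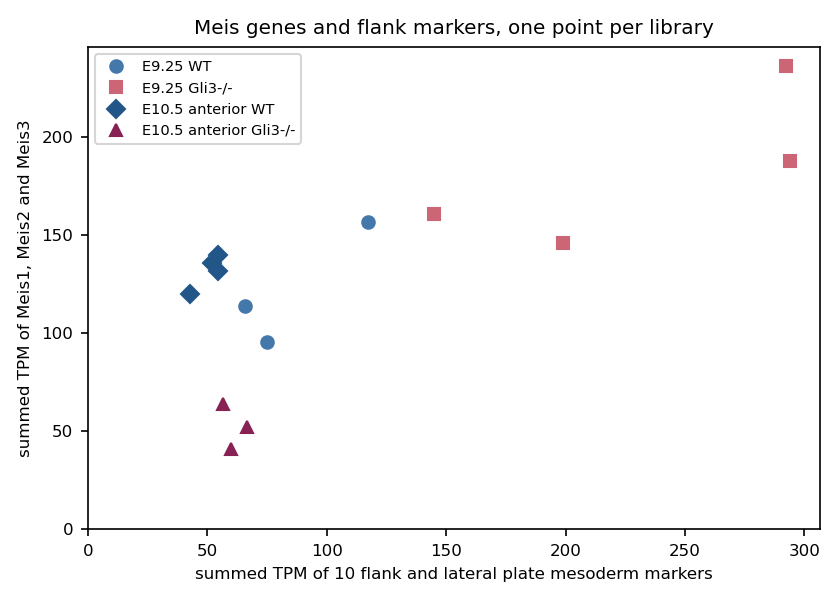
Summed TPM of Meis1, Meis2 and Meis3 (vertical axis) against summed TPM of 10 flank and lateral plate mesoderm markers (horizontal axis), 1 point per library, both axes from 0, with groups by color and shape. E9.25 Gli3-/- points lie furthest right (145 to 294 TPM), and E10.5 WT and Gli3-/- points are close on the horizontal axis and apart on the vertical one. Most of the flank sum at E10.5 is Bmp4 (mean 41.7 TPM in WT and 46.4 in Gli3-/-).

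The difference between the stages was tested in a model of all 14 libraries, as the effect of *Gli3* loss at E10.5 minus its effect at E9.25. It was called for *Meis1* (−1.98, standard error 0.28, limma adjusted p = 0.00197), *Meis2* (−1.79, standard error 0.26, adjusted p = 0.00252), *Meis3* (−2.29, standard error 0.35, adjusted p = 0.00304) and *Pbx3* (−0.86, standard error 0.17, adjusted p = 0.0173). These 4 of the 8 genes were all lower, where 1.65% of the 16368 genes tested were called lower and the median gene was at −0.24. With the library labelled E9.25 WT replicate 2 left out the values were −1.78, −1.61, −2.40 and −0.79, and all 4 still passed. The call on *Pbx3* was lost without E10.5 *Gli3*-/- replicate 2 (−0.84, adjusted p = 0.0501) or replicate 3 (−0.81, adjusted p = 0.0665).

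For the other 4 genes the difference between the stages was not called. It was −0.25 for *Pbx2* (95% interval −0.58 to 0.087) and −0.23 for *Pknox1* (95% interval −0.65 to 0.20), both close to the median of all genes, and with median-of-ratios scaling both had the other sign (0.023 and 0.031). For *Pbx4* it was −1.08 (limma adjusted p = 0.148), and for *Pknox2* −0.94 (adjusted p = 0.160). *Pknox2* passed in 1 of the 14 fits that left out a library, the one without E9.25 WT replicate 1 (−1.25, adjusted p = 0.0227). With the library labelled E9.25 WT replicate 2 left out, *Pbx2* was at −0.23, *Pknox1* at −0.10, *Pbx4* at −0.80 and *Pknox2* at −0.75, none of them called. Of 9 flank markers tested, 6 were lower in this comparison and 0 higher, so that the flank markers also moved with it. Their part in it was not tested.

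**Figure D3:**
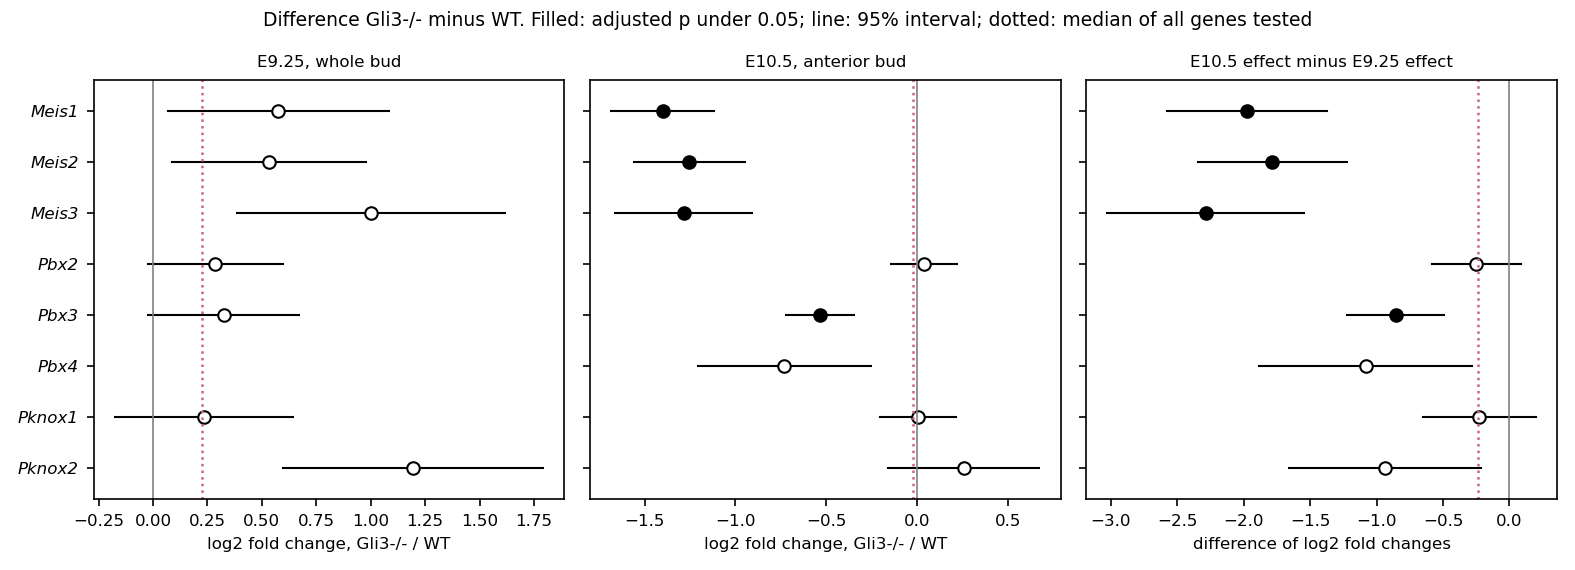
Log2 fold change of Gli3-/- over WT for each gene at E9.25 and E10.5 and the difference between the stages (horizontal axes, log2). Circles are limma estimates, filled where the adjusted p was under 0.05, lines are 95% intervals, and the dotted line is the median of all genes tested. Pbx4 has no E9.25 estimate, and the 3 Meis genes are the furthest left in the E10.5 and difference panels.

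From whole E9.25 buds to anterior E10.5 buds, the 2 genotypes were compared separately. In WT, 4 of the 8 genes were called, all higher, where 38.1% of the 15444 genes tested were called higher and the median gene was at 0.34. A share of that size is near the background. *Pbx3* (0.67, standard error 0.11, limma adjusted p = 0.00214) and *Pbx4* (1.31, standard error 0.28, adjusted p = 0.00656) passed in all 7 fits that left out 1 library. Without the library labelled WT replicate 2 of E9.25 they were at 0.60 and 1.03. Over the alternatives of filter, scaling and model *Pbx3* ranged from 0.33 to 0.69 and *Pbx4* from 0.81 to 2.68, and both stayed called. Mean *Pbx3* went from 35.2 to 56.5 TPM, and *Pbx4* from 0.532 ± 0.498 to 2.74 ± 0.844 TPM (SD, n = 3 and 4).

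*Pbx2* (0.32, limma adjusted p = 0.0302) and *Pknox1* (0.46, adjusted p = 0.0277) were close to the median gene. Each lost its call when the library labelled E9.25 WT replicate 2 was left out (*Pbx2* 0.30, adjusted p = 0.0587, and *Pknox1* 0.33, adjusted p = 0.0584). They also lost it without E9.25 WT replicate 3 (0.25, adjusted p = 0.0860, and 0.48, adjusted p = 0.0515), E10.5 WT replicate 1 (0.31, adjusted p = 0.0801, and 0.42, adjusted p = 0.0806) or E10.5 WT replicate 3 (0.30, adjusted p = 0.0779, and 0.46, adjusted p = 0.0653), and *Pknox1* lost it without E10.5 WT replicate 4 (0.44, adjusted p = 0.0735). With median-of-ratios scaling *Pbx2* turned to −0.019 and *Pknox1* came to 0.13, neither called.

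The WT *Meis* genes were not called between the stages. *Meis1* was at 0.47 (limma adjusted p = 0.0514), *Meis2* at 0.044 (95% interval −0.31 to 0.40) and *Meis3* at −0.50 (adjusted p = 0.124), and the sign of *Meis2* turned under 3 alternatives for scaling or gene span and on leaving out the library labelled E9.25 WT replicate 2 (−0.13). *Meis1* passed without E9.25 WT replicate 1 (0.67, adjusted p = 0.00613) and was at 0.27 without replicate 2 (adjusted p = 0.122). *Meis3* passed without E9.25 WT replicate 3 (−0.83, adjusted p = 0.0115) and was at −0.30 without replicate 1 (adjusted p = 0.346) and −0.39 without replicate 2 (adjusted p = 0.256). *Pknox2* was at −0.63 (adjusted p = 0.0599), and its E10.5 WT values, 1.51 to 2.11 TPM, were all below the lowest E9.25 WT value of 2.25. It passed on leaving out the library labelled E9.25 WT replicate 2 (−0.82, adjusted p = 0.0247) and was at −0.32 without E9.25 WT replicate 1 (adjusted p = 0.141).

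In *Gli3*-/- the *Meis* genes and *Pknox2* fell between the stages. These 4 of the 8 genes were called, all lower, where 9.17% of the 15434 genes tested were called lower and the median gene was at 0.061. *Meis1* fell by 1.51 on the log2 scale (standard error 0.20, limma adjusted p = 0.000380) and *Meis2* by 1.74 (standard error 0.18, adjusted p = 0.000100). *Meis3* had the largest fall, 2.79 (standard error 0.21), from a mean of 16.4 to 1.51 TPM, 90.8% lower, and *Pknox2* fell by 1.57 (standard error 0.21, adjusted p = 0.000449), from 8.70 to 2.30 TPM.

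All 4 calls held in the 7 fits that each left out 1 *Gli3*-/- library. *Pbx2* (0.075), *Pbx3* (−0.19), *Pbx4* (0.23) and *Pknox1* (0.23) were not called, each with a 95% interval that included 0. The *Gli3*-/- stage fall ran alongside that of the flank markers, of which 7 of 9 tested were lower and whose sum went from 145 to 294 TPM to 56.4 to 66.4 TPM. *Gata5* (−3.94), *Gata4* (−4.83) and *Foxf1* (−4.44) had the lowest adjusted p of these in limma. Most of the E10.5 *Gli3*-/- flank sum was *Bmp4* (mean 46.4 TPM, against 53.8 in E9.25 *Gli3*-/-) and *Osr1* (mean 13.2 TPM). *Foxf1*, *Foxf2*, *Gata4*, *Gata5*, *Gata6*, *Hand1*, *Tcf21* and *Wt1* were each under 1 TPM in all E10.5 *Gli3*-/- libraries. In WT 5 of 7 flank markers tested were lower and 1 was higher, where 1635 of the 15444 genes tested were called lower. Somite and muscle progenitor markers went the other way, with 5 of 7 higher and 1 lower in *Gli3*-/- and 6 of 7 higher and 1 lower in WT. Over all genes tested, 2437 of 15434 were called higher in *Gli3*-/- and 38.1% in WT. Their sum went from 25.5 to 34.2 TPM to 92.9 to 128 TPM in *Gli3*-/-, and from 28.7 to 30.8 TPM to 91.6 to 109 TPM in WT. The part of both marker lists in the stage differences was not tested.

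**Figure D4:**
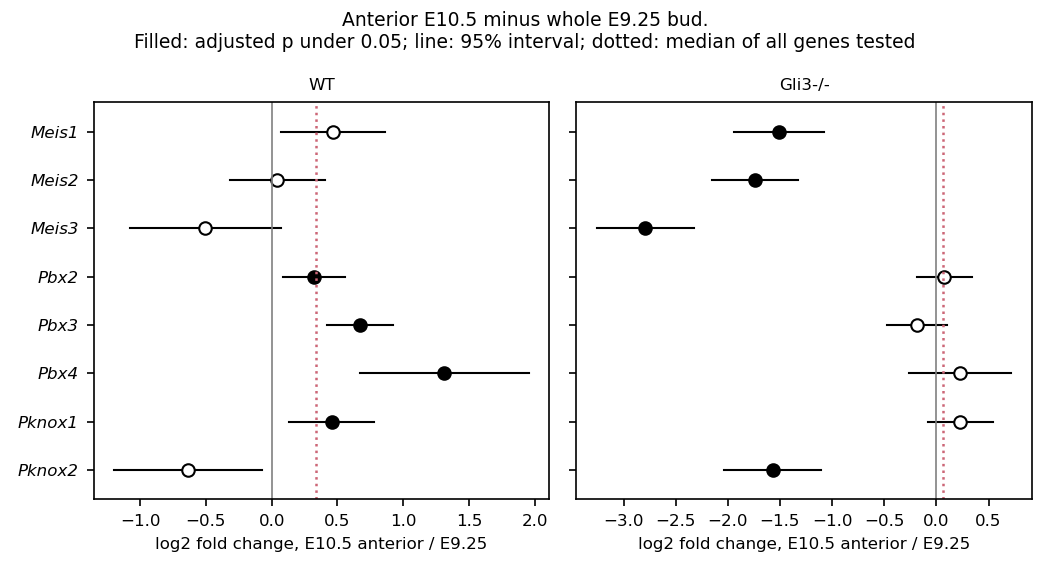
Log2 fold change of anterior E10.5 over whole E9.25 buds for each gene in WT (left) and Gli3-/- (right), on horizontal axes of different range. Circles are limma estimates, filled where the adjusted p was under 0.05, lines are 95% intervals, and the dotted line is the median of all genes tested. The 3 Meis genes and Pknox2 are filled and left of 0 in Gli3-/- and open in WT.

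*Meis1*, *Meis2* and *Meis3* together came to 122 ± 31.3 TPM in WT and 183 ± 39.6 in *Gli3*-/- at E9.25, and to 132 ± 8.62 and 52.3 ± 11.5 at E10.5 (SD, n = 3, 4, 4 and 3). *Meis2* made up 67.2, 64.8, 63.0 and 66.2% of it on average in these groups, and the *Meis2* share ranged from 62.2 to 68.8% over the 14 libraries. The share of *Meis1* was 26.2% in both E9.25 groups, and at E10.5 33.2% in WT and 30.9% in *Gli3*-/-. *Meis3* made up 6.67 ± 2.77% in WT and 8.97 ± 0.642% in *Gli3*-/- at E9.25, and 3.86 ± 0.603% and 2.88 ± 0.670% in the E10.5 groups.

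*Pbx2*, *Pbx3* and *Pbx4* together varied less, at 141 ± 17.6, 174 ± 20.7, 191 ± 11.0 and 175 ± 14.5 TPM in the same order of groups. *Pbx3* made up 29.6 ± 0.837% of that sum in WT and 22.2 ± 2.07% in *Gli3*-/- at E10.5, without overlap of the libraries. The ratio of summed *Meis* to summed *Pbx2*, *Pbx3* and *Pbx4* TPM, which does not depend on how a library is scaled, was 0.716 to 0.972 in WT and 0.934 to 1.18 in *Gli3*-/- at E9.25, and 0.656 to 0.776 in WT and 0.257 to 0.362 in *Gli3*-/- at E10.5. Only in the last of these groups was each library below all libraries of the other groups. The ratio of summed *Meis* to summed *Pknox* TPM was 5.45 to 5.87 in WT and 1.83 to 2.77 in *Gli3*-/- at E10.5, against 6.21 to 7.56 over the E9.25 libraries. *Pknox1* made up 82.7 ± 5.15% of the *Pknox* sum in WT and 68.0 ± 3.77% in *Gli3*-/- at E9.25, and 87.4 to 93.9% in the E10.5 libraries.

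**Figure D5:**
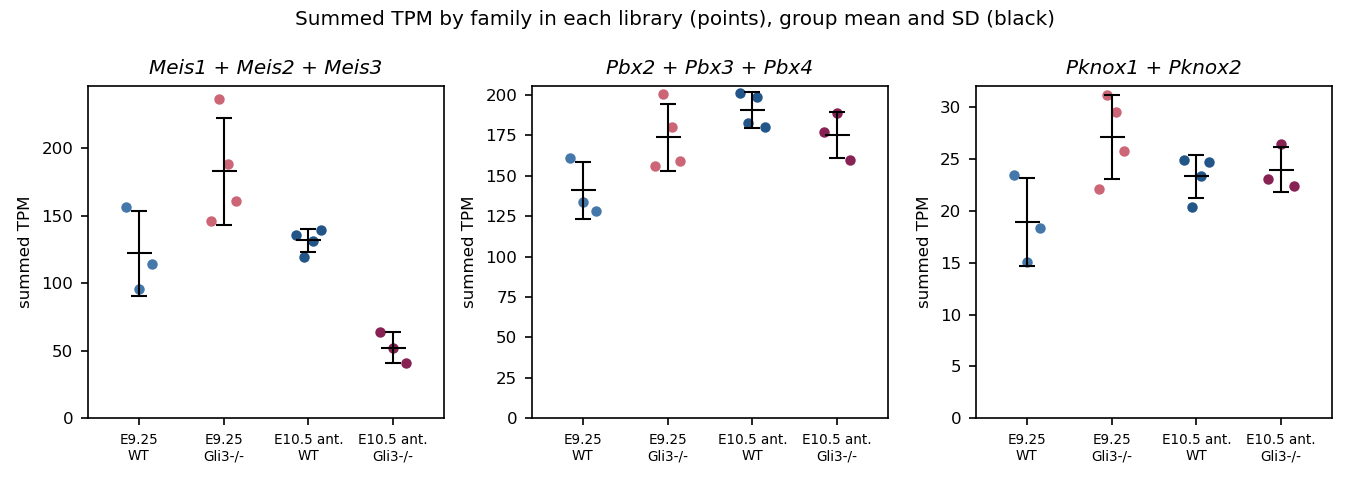
Summed TPM (vertical axes from 0) of the Meis, Pbx2 to Pbx4 and Pknox genes in the 14 libraries by group. Points are libraries, and black bars are the group mean and SD. The Meis sum is lowest in E10.5 Gli3-/- (52.3 ± 11.5 TPM), where the sum of Pbx2, Pbx3 and Pbx4 stays at 175 ± 14.5 TPM.

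Over the 14 libraries the *Meis* genes varied together, as a description across 4 groups that differ in stage, part of the bud and genotype. Pearson's r of log2(TPM + 1) was 0.96 between *Meis1* and *Meis2*, 0.90 between *Meis2* and *Meis3* and 0.79 between *Meis1* and *Meis3*. *Pbx3* and *Pbx4* (r = 0.84), *Pbx4* and *Pknox1* (r = 0.82) and *Pbx2* and *Pknox1* (r = 0.80) formed the next closest pairs outside the *Meis* family, and *Pknox2* was closest to *Meis3* (r = 0.76). Among all 16368 genes that passed the filter over the 14 libraries, *Meis1* was nearest to *Kctd12* (r = 0.98), *Meis2* (0.96) and *Fbxl2* (0.95). *Meis2* was nearest to *Hoxb3* (r = 0.97), *Kctd12* (0.97) and *Meis1* (0.96), and *Meis3* to *Abhd11*, *Tmem200b* and *Hoxa4* (r = 0.97 each).

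*Pbx2* was nearest to *Gsk3a*, *Repin1* and *Nucb1* (r = 0.97 each), and *Pknox1* to *Mtmr3*, *Zfp282* and *D930015E06Rik* (r = 0.97 each). *Pbx3* was nearest to *Celf4* (r = 0.94), *Ttl* (0.94) and *Snai2* (0.93), and *Pbx4* to *D330041H03Rik*, *Chpt1* and *Cep170b* (r = 0.95 each). *Pknox2* was nearest to *Cgnl1* (r = 0.99), *Myrf* (0.98) and *Sparcl1* (0.98). Every one of these likenesses was over the same 14 libraries and shares their groups and scaling.

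The lists of genes that follow can be set beside the calls over all genes. At E10.5, 288 of 15654 genes were called higher in *Gli3*-/- and 459 lower. At E9.25, 16 of 14760 were called higher and 4 lower. Between the stages 5885 of 15444 were called higher and 1635 lower in WT, and 2437 of 15434 higher and 1416 lower in *Gli3*-/-. In the difference between the stages 78 of 16368 were called higher and 270 lower. The other TALE homeobox genes give the nearest relatives for comparison. Of 7 tested at E10.5, 3 were lower in *Gli3*-/- and 0 higher, namely the Iroquois genes *Irx5* (−2.71, standard error 0.29, limma adjusted p = 0.00115), *Irx3* (−3.12, standard error 0.37, adjusted p = 0.00193) and *Irx4* (−0.92, adjusted p = 0.0112). At E9.25 0 of 7 were called, and in the difference between the stages 4 of 8 were lower. *Irx3* and *Irx5* act with GLI3 in proximal and anterior limb skeleton formation. In WT 5 of 7 were higher at E10.5 and in *Gli3*-/- 1 of 7 was higher and 4 were lower. *Pbxip1*, which encodes a protein that binds PBX and hinders its binding to DNA, was called in WT between the stages (1.39, adjusted p = 0.00128) and was at −0.25 with loss of *Gli3* at E10.5 (adjusted p = 0.310).

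Genes of retinoic acid synthesis, breakdown and response, the pathway that maintains *Meis* expression in the proximal limb, were mixed at E10.5, with 2 of 11 lower and 1 higher in *Gli3*-/-. The receptor *Rarb* was at −1.82 (limma adjusted p = 0.00366) and the binding protein *Crabp2* at −0.55 (adjusted p = 0.00456), and *Cyp26b1*, which breaks retinoic acid down, was at 0.78 (adjusted p = 0.0325). At E9.25 1 of 12 was called, *Aldh1a2*, the main retinoic acid synthesis enzyme of the trunk mesoderm, which was higher in *Gli3*-/- (1.76, adjusted p = 0.0380). Between the stages *Aldh1a2* was lower by 3.78 in WT and by 5.23 in *Gli3*-/-, among 5 higher and 3 lower of 12 in WT and 3 higher and 3 lower of 12 in *Gli3*-/-. In the difference between the stages 1 of 12 was lower, *Rarb* (−1.77, adjusted p = 0.00567). The part of these differences in the *Meis* values was not tested.

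FGF ligands and genes of the FGF response were mostly higher in *Gli3*-/- at E10.5. Of 11 tested, 8 were higher in *Gli3*-/- and 0 lower, where 288 of the 15654 genes tested were called higher. Those with the lowest adjusted p in limma were *Dusp6* (0.80, adjusted p = 0.000338), *Fgf8* (1.36, adjusted p = 0.000501) and *Fgf10* (1.05, adjusted p = 0.000643). At E9.25 0 of 9 were called. Between the stages 1 of 9 was higher and 1 lower in WT, 8 of 11 were higher in *Gli3*-/-, and 3 of 11 were higher in the difference between the stages. *Fgf10* was also among the limb mesenchyme markers. The part of the FGF differences in the *Meis* values was not tested.

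*Hox* genes, whose proteins pair with MEIS and PBX proteins, parted by paralog number. Of the HoxA and HoxD paralogs 9 to 13, 7 of 9 were higher in E10.5 *Gli3*-/- and 0 lower, led by *Hoxd10* (0.82), *Hoxd11* (2.11, limma adjusted p = 0.000544 for both) and *Hoxa11* (0.80, adjusted p = 0.000643). Of paralogs 1 to 8, 4 of 10 were lower and 0 higher, among them *Hoxa2* (−1.23, adjusted p = 0.00109), *Hoxa3* (−0.74, adjusted p = 0.00691) and *Hoxa4* (−0.81, adjusted p = 0.0191). None of either list was called at E9.25 (7 and 11 tested), though all 7 of the first list were lower in *Gli3*-/-. The E9.25 median was −1.37 for the first list and 0.43 for the second, against 0.23 over all genes tested. In the difference between the stages 8 of 9 of the first list were higher and 5 of 11 of the second were lower. That difference takes in the E9.25 values as well as those at E10.5.

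Of 10 girdle and other limb patterning genes, which are not all proximal, 7 were lower and 1 higher in E10.5 *Gli3*-/-. *Pax1* (−4.23, limma adjusted p = 0.000645), *Lhx9* (−0.93, adjusted p = 0.000806) and *Alx4* (−3.51, adjusted p = 0.00103) had the lowest adjusted p. *Lhx2*, 1 of those lower, was also among the limb mesenchyme markers. At E9.25 2 of 9 were lower, *Lhx2* (−1.995, adjusted p = 0.0142) and *Tbx15* (−1.84, adjusted p = 0.0340). In the difference between the stages 3 of 10 were lower and 3 higher. Of the remaining markers, 1 of 7 somite and muscle genes was higher and 1 lower at E10.5, 1 of 10 surface ectoderm genes was higher, and 0 of 7 endothelial and 0 of 8 erythroid genes were called. That ectoderm gene was *Fgf8*, also counted among the FGF genes. Ectoderm markers summed to 238 to 319 TPM in E10.5 WT and 350 to 398 in *Gli3*-/-. Erythroid markers summed to 14831 to 42130 TPM in E10.5 *Gli3*-/-, highest in replicate 3, which was also lowest for *Meis1* and *Meis2*. The part of these marker sums in the *Meis* values was not tested. *Meis1* was at −1.24 and *Meis2* at −1.09 or further below 0 in all 7 fits that left out 1 E10.5 library.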

How the data were processed

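Forelimb bud RNA of 14 pools (3 E9.25 WT, 4 E9.25 Gli3-/-, 4 anterior E10.5 WT, 3 anterior E10.5 Gli3-/-) was sequenced as single reads of 100 bases, aligned by the authors with HISAT2 and tested by them with a count model. The tool that made the gene tables is not given in the sources used here, and mm10 is the build in the submitters' processing notes. RefSeq (GRCm38.p6) places 99.8% of the 33122 IDs it names at an overlapping position. The authors deposited 1 table per library with the coverage of each gene (mean read depth per base), its FPKM and its TPM, and no counts.

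Depth was estimated from the most frequent ratio of the deposited coverage to the deposited FPKM and the read length. The deposited TPM values were used for all comparisons. Lines that repeat a gene ID were summed, and log2(TPM + 1) was tested with limma 3.58.1 (lmFit, eBayes with a trend, R 4.3.3) for genes that reached 1 TPM in 3 or more of the libraries, two-sided, with Benjamini-Hochberg adjustment over all genes tested and a threshold of 0.05. Fold changes are on this log2(TPM + 1) scale. The 5 comparisons were Gli3-/- against WT at each stage, E10.5 against E9.25 in each genotype, and the interaction. Comparisons share libraries. The procedure was tested on simulated data. Python 3.11.15 with pandas 2.3.3, NumPy 2.4.6 and matplotlib 3.10.9 made the other values.

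The genes and the lists of other genes were chosen with earlier results of these data known. Named are the 8 genes, at most 3 called genes of a list with the lowest adjusted p in a comparison, the 3 genes with the highest Pearson r to each, and Gli3. Replicates are separate pools of buds. The alternatives tried were no filter on low values, a filter at 5 TPM, a pseudocount of 0.1, quantile and median-of-ratios scaling, eBayes without a trend, a replicate block, 1 model of all 14 libraries and each library left out. Removing library trends along gene span and a block by the numbers of the deposited tables were added after seeing the data. Samples of the other assays were not used here.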

Additional observations from a re-analysis of the deposited data

Results flagged for a closer look

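The effect of Gli3 loss differed between anterior E10.5 and whole E9.25 buds for 4 of the 8 genes by the interaction test in limma. The E10.5 effect minus the E9.25 effect was −1.98 for Meis1 (adjusted p = 0.00197), −1.79 for Meis2 (adjusted p = 0.00252), −2.29 for Meis3 (adjusted p = 0.00304) and −0.86 for Pbx3 (adjusted p = 0.0173), on the log2 scale. All 4 calls were lost with the replicate numbers of the titles fitted as a block. Stage and the part of the bud sampled cannot be told apart in this difference. The flank markers, at 145 to 294 TPM in E9.25 Gli3-/- and 56.4 to 66.4 TPM in E10.5 Gli3-/-, also moved with it, and their part in it was not tested. Most of the flank sum in E10.5 Gli3-/- was Bmp4 (mean 46.4 TPM). In the 2 groups of 4 libraries, 16 sets of levels of the 8 genes were examined for a library far from the other 3 (Dixon's test), and 0 held one.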

How the results depend on the processing

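Of 670 results of single genes under alternatives, 623 kept their direction and their side of the threshold, 21 lost their call, 14 gained one and 12 changed sign, 0 of these past the threshold. With all libraries, 0, 4, 4, 4 and 4 of the genes were called at E9.25, at E10.5, between stages in WT, between stages in Gli3-/- and in the interaction. Leaving out 1 library gave 0 to 1, 4 to 5, 2 to 5, 4 and 3 to 5. The replicate block by title numbers gave 0 in the interaction and 2 between stages in WT, and 1 model of all 14 libraries gave 2 at E9.25. Signs changed at E9.25 for Pknox1 with quantile normalization (−0.048). They changed at E10.5 for Pbx2 without Gli3-/- replicate 2 (range −0.036 to 0.10 over the libraries left out) and for Pknox1 without WT replicate 2 or Gli3-/- replicate 2 (range −0.055 to 0.043). Between stages in WT Meis2 came to −0.028 with quantile normalization, −0.30 with median-of-ratios scaling, −0.25 with the gene span trend removed and −0.13 once E9.25 WT replicate 2 was dropped (range to 0.23), and Pbx2 to −0.019 with median-of-ratios scaling. In the interaction Pknox1 came to 0.078 with quantile normalization, and to 0.031, with Pbx2 at 0.023, with median-of-ratios scaling. The cause was not tested.

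Under the replicate block the interaction was −1.996 for Meis1 (limma adjusted p = 0.108), −1.80 for Meis2 (0.108), −2.45 for Meis3 (0.0616) and −0.91 for Pbx3 (0.214), E10.5 Pbx3 was −0.55 (0.0697), and 42 of all genes were called in the interaction. Same-numbered libraries did not deviate together (mean r −0.18 at E9.25 and −0.054 at E10.5), so the numbers were not taken as pairs. With the deposited tables' numbers the mean r at E10.5 was 0.19 (lowest 0.052). That block was fitted only for loss of Gli3 at E10.5, where it kept 4 genes called, and not for the interaction. Over all genes, the block by title numbers called 66 at E9.25 and 164 at E10.5, against 20 and 747, and 1 model of all 14 libraries called 1185 and 406. A TPM near 1, as for Pbx4, rests on 20.7 to 29.3 reads per kilobase.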
